A study of Mus musculus with 4 samples.

Results

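The platelet-derived growth factor (PDGF) family of the mouse was examined in Osr1+ cells of the embryonic limb, as the 4 ligand genes *Pdgfa*, *Pdgfb*, *Pdgfc* and *Pdgfd* and the 2 receptor genes *Pdgfra* and *Pdgfrb*. The members were taken by gene symbol. All 6 were present among the 23284 genes of each count table, and all 6 had enough counts to be tested. The cells were sorted for GFP from limbs at E13.5 of C57BL/6J embryos. The GFP comes from the *Osr1* GCE knock-in allele, which places eGFP and CreERt2 in the *Osr1* locus, so that every embryo carried at least 1 GCE allele. The 2 GCE/+ samples came from embryos with 1 intact *Osr1* allele, and the 2 GCE/GCE samples from embryos with none. Each sample was 1 embryo, no wild-type sample was analysed here, and the sort took whatever cells were positive for GFP in whole limbs, without a second surface marker.

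PDGF ligands are secreted dimers of chains encoded by these 4 genes. The PDGF-A and PDGF-B chains are processed inside the cell, whereas PDGF-C and PDGF-D are released with a CUB domain that proteases have to remove before they can bind a receptor. The receptors are tyrosine kinases that pair when a ligand binds. PDGFRα binds PDGF-AA and PDGF-CC among others and is a widely used marker of mesenchyme and of fibro-adipogenic progenitors, and PDGFRβ binds PDGF-BB and PDGF-DD and is best known from the mural cells of blood vessels. Ligand genes are often active in a neighbouring cell type, *Pdgfb* in endothelium and *Pdgfa* in epithelium and muscle, while mesenchyme carries the receptors.

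The 4 samples held 52121596 to 61402140 counted fragments, and 3 counts amounted to at most 0.0574 CPM (the count relative to the library total after TMM scaling), a limit that covers counting error only. *Osr1* itself had 81.9 and 79.1 CPM in the GCE/+ samples and 11.9 and 13.9 CPM in the GCE/GCE samples, as the labels require. *Xist* stood at 1142 CPM in GCE/GCE replicate 1 and at no more than 2.63 CPM in the other samples, so the embryos were not all of the same sex. Genes of mesenchyme were the most abundant of the marker lists in all samples, with 22443 to 29146 CPM summed over 16 fibroblast and limb mesenchyme genes, against 1911 to 2733 CPM for 7 tendon genes, 1021 to 2293 CPM for 15 cartilage genes, 483 to 555 CPM for 13 mural cell genes, 205 to 452 CPM for 18 macrophage genes, 158 to 462 CPM for 9 blood genes, 169 to 220 CPM for 12 myogenic genes, 112 to 156 CPM for 13 endothelial genes, 22.8 to 27.7 CPM for 7 Schwann and neural crest genes and 23.5 to 29.5 CPM for 8 genes of the surface ectoderm. Most of the tendon sum came from *Egr1*, at 1269 to 1840 CPM, a gene that is also counted among the early response genes below. None of the 16 mesenchymal genes passed edgeR's quasi-likelihood test (adjusted p under 0.1), 4 had an unadjusted p under 0.05 (10.5% of all tested genes did) and 4 were called lower by DESeq2 (1.69% of all its genes were). Their median log2 fold change was -0.18, and it was -0.060 without GCE/+ replicate 1, -0.10 without GCE/GCE replicate 2, -0.30 without GCE/GCE replicate 1 and -0.31 without GCE/+ replicate 2. Each of these fits left 1 sample in 1 group, so that only the medians are given. None of the 7 Schwann and neural crest genes was called by either tool or had an unadjusted p under 0.05. Defining genes of the other cell types were not at 0, *Pecam1* reaching 10.9 to 18.5 CPM and *Ptprc* 3.45 to 9.23 CPM.

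*Pdgfc* was the only member that differed between the genotypes in edgeR's quasi-likelihood test (Benjamini-Hochberg adjusted p under 0.1). It lies on chromosome 3 of GRCm38 from 81036416 to 81214040, on the plus strand. The 250 bases before its annotated start are shown because it was the member that changed, and because the CArG box, the element to which serum response factor binds in growth-factor-responsive genes, is found there in capitals, with its first base 17 bases before the start. The window is chr3:81036166-81036415 on the plus strand of RefSeq's GRCm38.p6, and RefSeq windows were at hand for 4 of the 6 members.

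Pdgfc: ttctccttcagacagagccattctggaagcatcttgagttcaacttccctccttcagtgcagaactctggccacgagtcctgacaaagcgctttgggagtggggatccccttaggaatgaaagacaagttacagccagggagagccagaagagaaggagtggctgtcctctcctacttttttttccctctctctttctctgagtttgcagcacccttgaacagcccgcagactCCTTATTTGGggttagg

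A CArG box was present in 1.47% of 32817 promoter windows of the same length. It was looked for after the sequence had been seen, and its presence is a description of the letters. The window contained no TATA box (TATAAA, in 12.4% of all windows on either strand), no CCAAT box (CCAAT, 33.8%), no GC box (GGGCGG, 32.7%) and no core of the odd-skipped family motif (CAGTAGC, 3.0%). It held 3 CpG dinucleotides, where the median window held 6.

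The receptors were abundant in Osr1+ cells of both genotypes, and the ligands were not. To compare genes, CPM were divided by the length of the longest protein-coding transcript in the GENCODE basic set of each gene, here called the level per kb. All 6 are annotated protein-coding genes in GRCm38. *Pdgfra* had a level per kb of 122 and 143 in GCE/+ replicates 1 and 2 and of 133 and 141 in GCE/GCE replicates 1 and 2, at or above 97.7% of the tested genes on average. *Pdgfrb* followed with levels per kb of 35.7 and 38.0 in the GCE/+ embryos, against 34.7 and 33.0 in the GCE/GCE embryos, at the 87.2nd percentile. Among the ligands, *Pdgfc* had the highest level per kb, at the 64.2nd percentile, and *Pdgfa*, *Pdgfd* and *Pdgfb* stood at the 40.6th, 30.4th and 25.2nd. The median tested gene had a level per kb of 6.98, so that *Pdgfc* was the only ligand above it.

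The order was *Pdgfra*, *Pdgfrb*, *Pdgfc*, *Pdgfa*, *Pdgfd* and *Pdgfb* in each of the 4 samples, and no neighbours in this order overlapped. When coding length was used in place of transcript length, *Pdgfc* came before *Pdgfrb* in GCE/GCE replicate 2, and the order was otherwise the same. *Pdgfra* exceeded *Pdgfc* 12.5 and 14.3 times per kb in the GCE/+ samples, and 9.53 and 8.60 times in the GCE/GCE samples. The gap was narrower between *Pdgfrb* and *Pdgfc*, which had 33.0 and 16.3 per kb in GCE/GCE replicate 2 and 35.7 and 9.77 in GCE/+ replicate 1, as the plot of levels per kb shows.

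**Figure D1:**
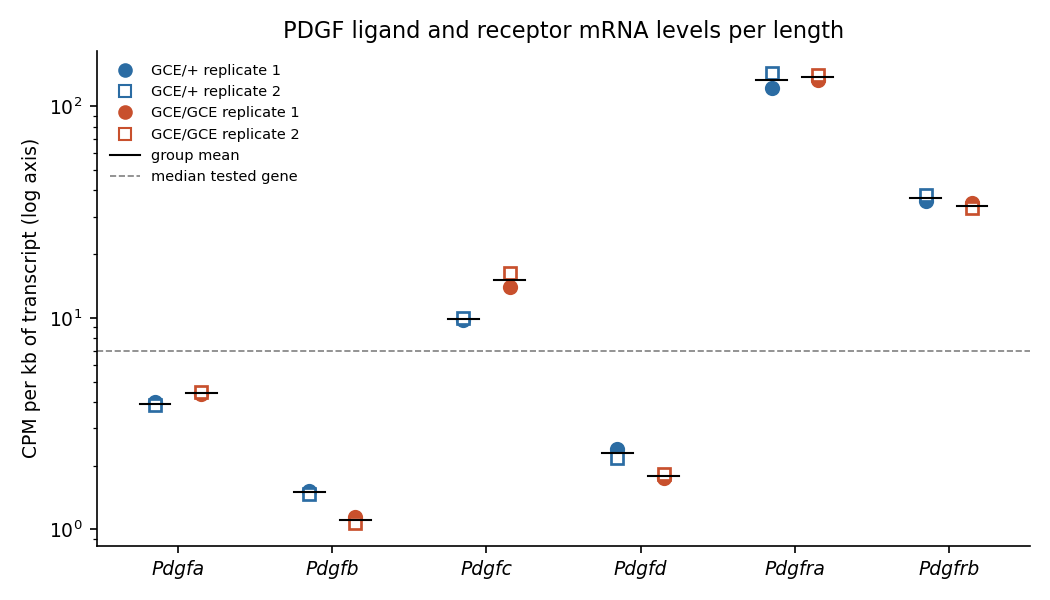
Level of each PDGF ligand and receptor mRNA (CPM per kb of transcript, log axis) in the 4 samples, with GCE/+ in blue and GCE/GCE in red, replicate 1 as filled circles, replicate 2 as open squares, bars for the group means and a dashed line for the median tested gene. *Pdgfra* lies highest, between 122 and 143, and the GCE/GCE samples stand apart upwards for *Pdgfc*, at 14.0 and 16.3 against 9.77 and 9.96.

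Of the 6 members, 1 passed the adjusted p of 0.1, while 1.78% of the 15645 tested genes passed it, 0.888% as higher and 0.895% as lower in GCE/GCE cells. In 5 of the 6 members the samples of the genotypes did not overlap, which was also true of 38.4% of all tested genes. An unadjusted p under 0.05 was reached by 3 members, *Pdgfb*, *Pdgfc* and *Pdgfd*, and by 10.5% of tested genes. With 2 samples against 2, an exact permutation test cannot give a p below 0.333, so calls depend on a spread that edgeR shares across genes.

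The CUB-domain ligand *Pdgfc* had 34.4 and 35.1 CPM in GCE/+ replicates 1 and 2, and 49.1 and 57.6 CPM in GCE/GCE replicates 1 and 2. Both GCE/GCE samples lay above both GCE/+ samples. The group means were 34.7 ± 0.47 CPM in GCE/+ and 53.3 ± 5.96 CPM in GCE/GCE cells (SD, n = 2), a 1.54-fold rise. The log2 fold change was 0.62 (SE 0.10, 95% interval 0.38 to 0.86, Benjamini-Hochberg adjusted p = 0.0436 by edgeR), and by unadjusted p the gene ranked 103 among the 15645 tested. DESeq2, the tool named in the study's methods, gave 0.62 (SE 0.12) with an adjusted p of 0.000101, where 3.45% of its tested genes passed 0.1 (1.77% as higher and 1.69% as lower). Each of 13 alternative settings kept *Pdgfc* past its threshold, with log2 fold changes from 0.50 to 0.72. Among them, a fit blocked on replicate number called 1.79% of all genes and gave *Pdgfc* an adjusted p of 0.0582 (edgeR). Upper quartile normalization and an offset for transcript length gave adjusted p = 0.0559 and 0.0535 (edgeR). The largest adjusted p of the 13 came without GCE/+ replicate 1, where the log2 fold change was 0.60. The log2 fold change was 0.63 without GCE/+ replicate 2, 0.72 without GCE/GCE replicate 1, the sample with *Xist*, and 0.50 without GCE/GCE replicate 2.

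*Pdgfd*, whose product also carries a CUB domain and acts on PDGFRβ, lies on chromosome 9 from 6168584 to 6378850 and had 7.51 and 6.85 CPM in the GCE/+ embryos, against 5.48 and 5.73 CPM in the GCE/GCE embryos. Here both GCE/GCE samples were below both GCE/+ samples. Its log2 fold change was -0.36 (SE 0.15, 95% interval -0.69 to -0.02), with an unadjusted p of 0.0393 and an adjusted p of 0.433 in the edgeR test. DESeq2 gave an unadjusted p of 0.0751 and an adjusted p of 0.708. The lowest count behind these values was 318, for which counting error alone amounts to 5.61% of the value.

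*Pdgfb*, which encodes the chain that endothelium uses to recruit mural cells, was the scarcest member, with 4.47 and 4.34 CPM in the GCE/+ embryos, against 3.38 and 3.15 CPM in the GCE/GCE embryos. The GCE/GCE values were again below both GCE/+ values. The log2 fold change of -0.43 (SE 0.17, 95% interval -0.83 to -0.04) had an unadjusted p of 0.0354 and an adjusted p of 0.409 in the edgeR test. In DESeq2 the unadjusted p was 0.0788 and the adjusted p 0.731. Its counts were 272 and 227 against 196 and 193, at a locus on chromosome 15 from 79995874 to 80014977. Of 13 endothelial genes, 11 had a negative and 2 a positive log2 fold change. *Cdh5*, the cadherin of endothelial junctions, had 24.2 and 19.4 CPM in the GCE/+ embryos, against 17.6 and 12.7 CPM in the GCE/GCE embryos. *Erg*, a transcription factor of endothelium, had 13.4 and 14.2 CPM against 16.7 and 18.4 CPM, and *Tek*, the angiopoietin receptor, had 21.1 and 17.8 CPM against 21.9 and 21.3 CPM, so that both GCE/GCE samples of these genes were above both GCE/+ samples. The 13 endothelial genes together had 156 and 129 CPM against 129 and 112 CPM, and their median log2 fold change was -0.41 where that of all tested genes was 0.00. None of the 13 passed the edgeR test, 8 had an unadjusted p under 0.05 (10.5% of all tested genes did), and DESeq2 called 1 of them lower (1.69% of all its genes were). Leaving out GCE/GCE replicate 1 gave 5 lower calls and a median of -0.57, and leaving out GCE/+ replicate 2 gave 2 lower calls and -0.65, where the calls over all genes went from 279 to 696 and 984. Leaving out GCE/+ replicate 1 or GCE/GCE replicate 2 gave 0 calls and medians of -0.18 and -0.26, where all genes had 197 and 402 calls. The part of endothelial cells in the *Pdgfb* values was not tested, and in a sorted bulk sample fewer cells of a type cannot be told apart from less RNA per cell.

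*Pdgfa*, the ligand of PDGFRα that epithelium and muscle are known to supply, lies on chromosome 5 from 138976014 to 138997370 and had 8.23 and 7.96 CPM in the GCE/+ embryos, against 8.99 and 9.15 CPM in the GCE/GCE embryos. The groups did not overlap, but the distance was small, with a log2 fold change of 0.16 (SE 0.13, 95% interval -0.13 to 0.46, adjusted p = 0.799 in the edgeR test). The interval leaves room for folds from 0.916 to 1.37. An annotated antisense gene overlaps the 5′ part of the *Pdgfa* locus, and because the library kit does not mark strand, fragments from the shared stretch cannot be assigned with certainty. Of the 8 genes of the surface ectoderm 0 passed the edgeR test, 3 had an unadjusted p under 0.05 and 1 was called higher in DESeq2. Of the 12 myogenic genes the same numbers were 0, 3 and 1. Among all genes, 10.5% had an unadjusted p under 0.05 in edgeR and 1.77% were called higher in DESeq2. Leaving out single samples gave median log2 fold changes of -0.11 to 0.14 for the ectoderm genes and 0.0046 to 0.26 for the myogenic genes.

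**Figure D2:**
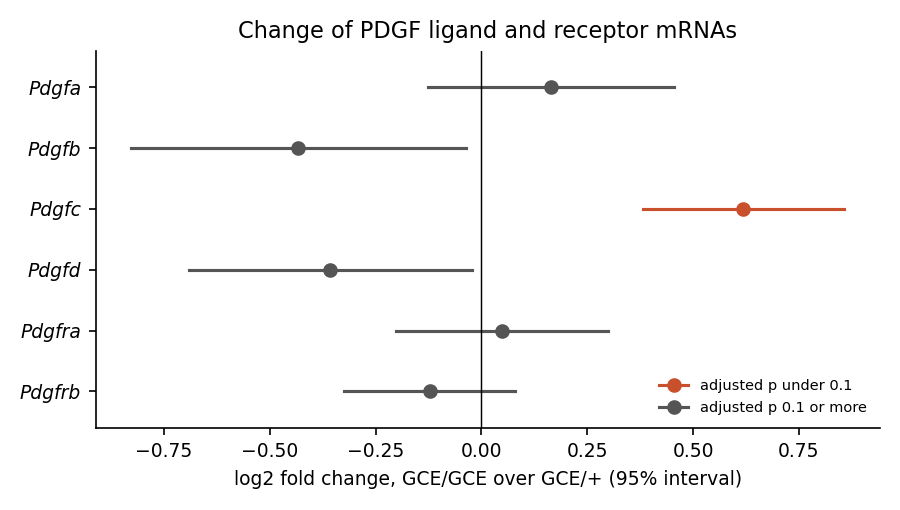
Log2 fold change of each PDGF ligand and receptor mRNA in GCE/GCE over GCE/+ cells (points) with its 95% interval from edgeR's quasi-likelihood fit (lines), with 2 samples per genotype. *Pdgfc*, in red, is the 1 member past an adjusted p of 0.1, and the intervals of *Pdgfb* and *Pdgfd* end just below 0, at -0.04 and -0.02.

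The make-up of the ligand mRNAs differed in the same samples, in shares that depend on each other. Per kb, *Pdgfc* accounted for 55.3% and 57.0% of the summed ligand level in the GCE/+ samples and for 65.8% and 69.0% in the GCE/GCE samples. The share of *Pdgfa* was 22.6% and 22.1% against 20.6% and 18.7%, that of *Pdgfd* was 13.6% and 12.5% against 8.25% and 7.73%, and that of *Pdgfb* was 8.58% and 8.43% against 5.41% and 4.52%. Thus the GCE/GCE samples had a larger share of *Pdgfc* and smaller shares of each other ligand than either GCE/+ sample. The ratio of *Pdgfc* to *Pdgfa* per kb, which needs no scaling between samples, was 2.45 and 2.58 in the GCE/+ embryos, against 3.20 and 3.68 in the GCE/GCE embryos (exact permutation p = 0.333, two-sided, the smallest that the design allows). The summed level of the 4 ligands per kb was 17.7 and 17.5 in the GCE/+ embryos, against 21.2 and 23.7 in the GCE/GCE embryos.

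**Figure D3:**
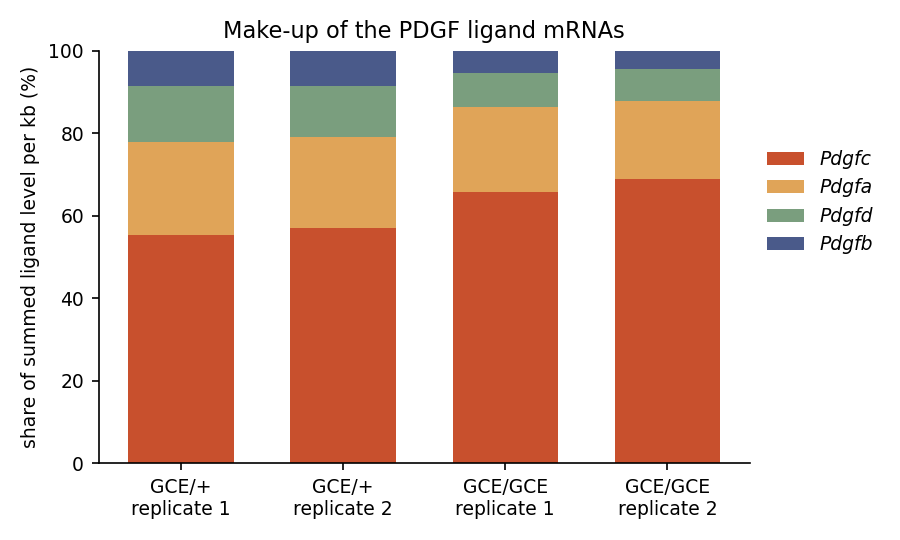
Share of each ligand in the summed PDGF ligand level per kb (%), in the 4 samples from left to right, with *Pdgfc* at the bottom in red. The share of *Pdgfc* is 55.3% and 57.0% in GCE/+ and 65.8% and 69.0% in GCE/GCE samples.

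Neither receptor gene passed the test between the genotypes, and neither had an unadjusted p under 0.05 in edgeR or an adjusted p under 0.1 in DESeq2. *Pdgfra*, on chromosome 5 from 75152292 to 75198215, had 833 and 977 CPM in the GCE/+ embryos, against 909 and 961 CPM in the GCE/GCE embryos. The GCE/GCE values lay between those of the GCE/+ samples. Its log2 fold change was 0.05 (SE 0.11, 95% interval -0.20 to 0.30, adjusted p = 0.963 by edgeR), so that folds from 0.869 to 1.23 remain possible, and the sign turned, at -0.035 with an offset for transcript length and at -0.070 without GCE/+ replicate 1. With 50700 counts or more in every sample, counting error contributed at most 0.444% and depth was not the limit.

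*Pdgfrb*, on chromosome 18 from 61045150 to 61085061, had 194 and 206 CPM in the GCE/+ embryos, against 188 and 179 CPM in the GCE/GCE embryos, where both were below the GCE/+ values. The log2 fold change was -0.12 (SE 0.09, 95% interval -0.32 to 0.08, adjusted p = 0.769 in the edgeR test). Of the mural cell genes that usually accompany *Pdgfrb* around vessels, *Rgs5* stood at 1.36 to 3.38 CPM and *Higd1b* had 0 counts in each sample, whereas *Notch3* had 173 to 188 CPM and *Cspg4* 58.2 to 73.1 CPM. The 12 tested mural cell genes had a median log2 fold change of 0.07 with 0 calls in edgeR. An unadjusted p under 0.05 was reached by 4 of them (10.5% of all tested genes did), and DESeq2 called 1 lower (1.69% of all its genes were). The direction depended on the samples. Leaving out GCE/GCE replicate 2 gave 2 higher calls and a median of 0.17, among 402 calls over all genes. Leaving out GCE/+ replicate 2 or GCE/GCE replicate 1 gave 1 lower call each, among 984 and 696, with medians of 0.10 and -0.081, and leaving out GCE/+ replicate 1 gave 0 calls and 0.015.

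The ratio of *Pdgfra* to *Pdgfrb* per kb was 3.41 and 3.76 in GCE/+ replicates 1 and 2 and 3.83 and 4.27 in GCE/GCE replicates 1 and 2. Its mean was 3.59 ± 0.25 in GCE/+ and 4.05 ± 0.31 in GCE/GCE samples (SD, n = 2). The groups did not overlap, but GCE/+ replicate 2 and GCE/GCE replicate 1 were closer to each other than to their own partners, and the exact permutation p was 0.333, the smallest possible. Summed receptor level exceeded summed ligand level 8.91 and 10.3 times per kb in GCE/+ and 7.91 and 7.33 times in GCE/GCE samples.

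The genes of 2 proteases that release the CUB-domain ligands, *Plat* and *Plau*, were called lower in GCE/GCE cells by edgeR. *Plat* encodes tissue plasminogen activator, which cleaves PDGF-CC, and *Plau* encodes urokinase, which cleaves PDGF-DD. *Plat* had 110 and 124 CPM in the GCE/+ embryos, against 89.5 and 83.9 CPM in the GCE/GCE embryos, and on the log2 scale it fell by 0.43 with an SE of 0.09 (adjusted p = 0.0805 by edgeR). *Plau* had 37.5 and 52.8 CPM in the GCE/+ embryos, against 27.7 and 23.4 CPM in the GCE/GCE embryos and fell by 0.82 (SE 0.16, adjusted p = 0.0737 in the same test). In both genes the genotypes did not overlap, while the GCE/+ samples of *Plau* lay further apart than the GCE/GCE samples. DESeq2 gave adjusted p = 0.00784 for *Plat* and 0.000101 for *Plau*. The edgeR calls were close to the threshold. Both were lost with an offset for transcript length (adjusted p = 0.108 and 0.126), with the replicate block (0.127 and 0.111) and at a threshold of 0.05. The call of *Plau* was also lost with offset and block together (0.119 by edgeR), and that of *Plat* without GCE/GCE replicate 2. Where the call was lost, the log2 fold changes were -0.43 to -0.39 for *Plat* and -0.82 to -0.77 for *Plau*.

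**Figure D4:**
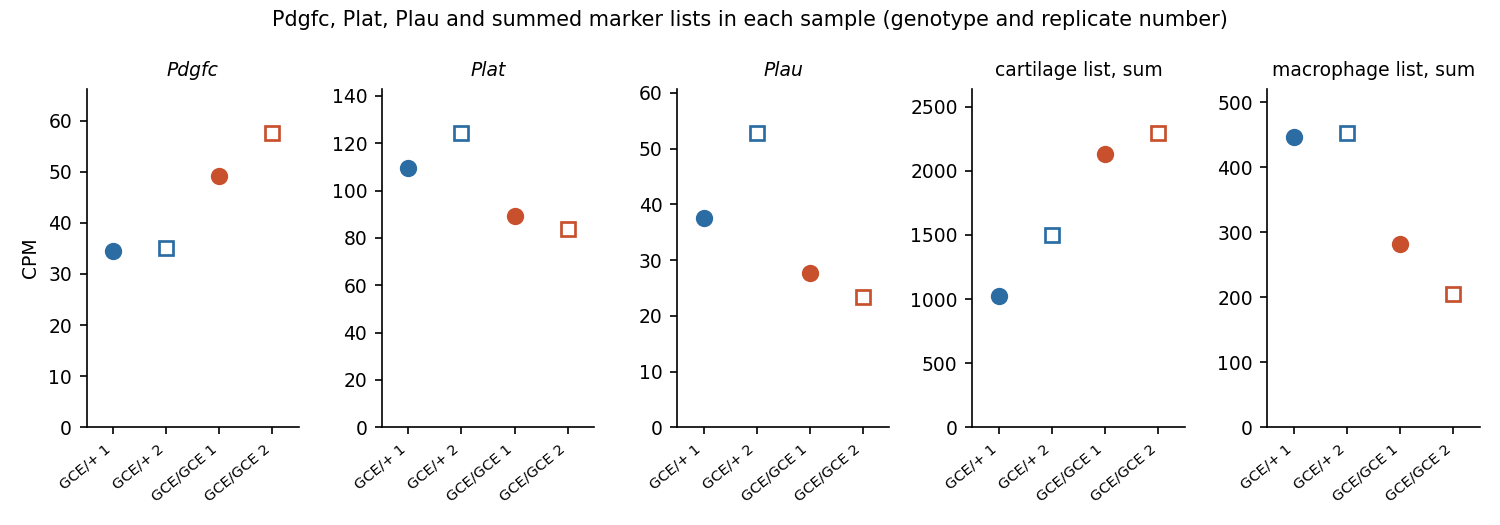
CPM of *Pdgfc*, of the protease genes *Plat* and *Plau*, and of the summed cartilage and macrophage lists in each of the 4 samples (y axes start at 0, GCE/+ in blue, GCE/GCE in red). Both GCE/GCE samples lie above both GCE/+ samples for *Pdgfc* and the cartilage sum, and below them in the other panels.

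Genes of the cartilage, macrophage and tendon lists also differed between the genotypes. The 15 cartilage genes summed to 1021 and 1502 CPM in GCE/+ cells and to 2131 and 2293 CPM in GCE/GCE cells. Their median log2 fold change was 0.95, and edgeR called 6 of them, all higher (0.888% of all tested genes were). The cartilage sum was thus unequal between the GCE/+ samples. The cartilage median was 0.55 without GCE/+ replicate 1 and 1.37 without GCE/+ replicate 2. The 18 macrophage genes summed to 446 and 452 CPM in GCE/+ and to 282 and 205 CPM in GCE/GCE cells. Their median was -0.94 and 12 were called, all lower (0.895% of all tested genes were). The median was -1.20 without GCE/GCE replicate 1 and -0.72 without GCE/GCE replicate 2. *C1qb* and *Mrc1* had 9.79 to 14.2 and 50.2 to 63.4 CPM in GCE/GCE cells, against 25.6 to 28.5 and 98.1 to 103 CPM in GCE/+ cells. Of the 7 tendon genes 4 were called higher (0.888% of all tested genes were), with a median of 0.68. That median was 0.92 without GCE/+ replicate 1 and 0.46 without GCE/+ replicate 2. The part of cartilage, tendon or macrophage cells in the values of *Pdgfc*, *Plat* and *Plau* was not tested.

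Of the remaining genes that process PDGF or bind it, 0 passed the test in edgeR or DESeq2. Only 1 had an unadjusted p under 0.05 in edgeR (10.5% of all tested genes did). The full list had 14 genes, of which 13 were tested, with a median log2 fold change of 0.01. In edgeR 2 were called lower (*Plat* and *Plau*) and 0 higher, where 0.895% and 0.888% of all tested genes were. Leaving out GCE/GCE replicate 1 gave 4 lower calls, among 696 over all genes, and leaving out GCE/GCE replicate 2 gave 1 lower and 1 higher call, among 402. *Pcsk6*, a proprotein convertase, had 46.6 and 38.9 CPM in the GCE/+ embryos, against 63.6 and 48.0 CPM in the GCE/GCE embryos, with a log2 difference of 0.38 (adjusted p = 0.368 by edgeR). *Sparc*, whose matrix protein binds PDGF-B, was the most abundant gene of the list, with 1422 and 1221 CPM against 1291 and 983 CPM. *Nrp1*, a co-receptor, had 224 and 210.5 CPM against 216 and 156 CPM.

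Among the relatives of the family, *Csf1r*, a class III receptor kinase of macrophages, was the 1 gene called by edgeR (1.78% of all tested genes were). It had 60.7 and 67.2 CPM in the GCE/+ embryos, against 41.4 and 24.1 CPM in the GCE/GCE embryos (log2 fold change -0.97, SE 0.21, adjusted p = 0.0954 by edgeR). DESeq2 did not call it (adjusted p = 0.265), and neither did edgeR without GCE/+ replicate 1 (0.145) or without GCE/+ replicate 2 (0.107), with upper quartile normalization (0.113) or with the length offset (0.108). The log2 fold change stayed between -1.04 and -0.89 in these fits, and it was -0.63 without GCE/GCE replicate 2, where the gene was called. *Csf1r* belongs to the macrophage list above, of whose 18 genes 17 had a negative log2 fold change and 12 were called lower (0.895% of all tested genes were). All 6 related receptors had a negative log2 fold change and their median was -0.39, which went to -0.24 without GCE/GCE replicate 2 and to -0.57 without GCE/GCE replicate 1. They included the VEGF receptor genes *Flt1* and *Flt4*, which endothelium expresses, at -0.61 and -0.52 (adjusted p = 0.259 and 0.306 in the edgeR test), and *Kit*, at -0.07 and 13.8 to 15.2 CPM. Of the 5 VEGF-branch growth factors 0 were called in edgeR or DESeq2 and 1 had an unadjusted p under 0.05 (10.5% of all tested genes did). Their median was -0.09, and it was -0.27 without GCE/GCE replicate 1 and 0.10 without GCE/+ replicate 1. The gene under 0.05 was *Vegfc*, the lymphatic growth factor, with 23.9 and 21.8 CPM against 18.9 and 16.0 CPM. *Figf* and *Pgf* had differences of -0.09 and -0.16 on the log2 scale, and *Vegfa* was the most abundant of them, at 192 to 222 CPM.

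Downstream of the receptors no gene passed. Of 38 tested adaptors and signal transducers, 19 negative regulators and 18 early response genes, 0 were called in edgeR or in DESeq2. Of all genes, 1.78% and 3.45% were called by these tools. An unadjusted p under 0.05 in edgeR was reached by 2, 0 and 1 genes of the 3 lists (10.5% of all tested genes did). Their median log2 fold changes were 0.02, 0.02 and -0.09, beside 0.00 for all tested genes. The median of the early response genes changed sign with the samples, at 0.058 without GCE/+ replicate 1, 0.034 without GCE/GCE replicate 2, -0.18 without GCE/+ replicate 2 and -0.21 without GCE/GCE replicate 1, and those of the adaptors and transducers lay between -0.041 and 0.073 and of the negative regulators between -0.012 and 0.028. Without GCE/+ replicate 2, 6 adaptors and transducers and 2 negative regulators were called higher and 1 early response gene lower, among 984 calls over all genes. The largest differences among transducers were those of *Slc9a3r1*, a scaffold of PDGFR signalling, at -0.40, of the adaptor *Nck2* at 0.28 and of the PI3-kinase subunit *Pik3r1* at 0.25 (unadjusted p = 0.0764, 0.0183 and 0.0476 in the edgeR test, none past the adjusted threshold). Among negative regulators the ubiquitin ligase gene *Cbl* had 21.5 CPM in GCE/+ replicate 1 against 44.0 to 47.3 CPM in the other 3 samples, so that its log2 difference of 0.50 (adjusted p = 0.616 in the edgeR test) came from 1 sample. *Nf1* and *Spred1* had 0.18 and 0.16. Among early response genes, *Myc* had 86.3 and 78.2 CPM in the GCE/+ embryos, against 101 and 90.1 CPM in the GCE/GCE embryos, a log2 difference of 0.22 (adjusted p = 0.444 in the edgeR test), and *Egr3* and *Atf3* had -0.23 and -0.18.

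**Figure D5:**
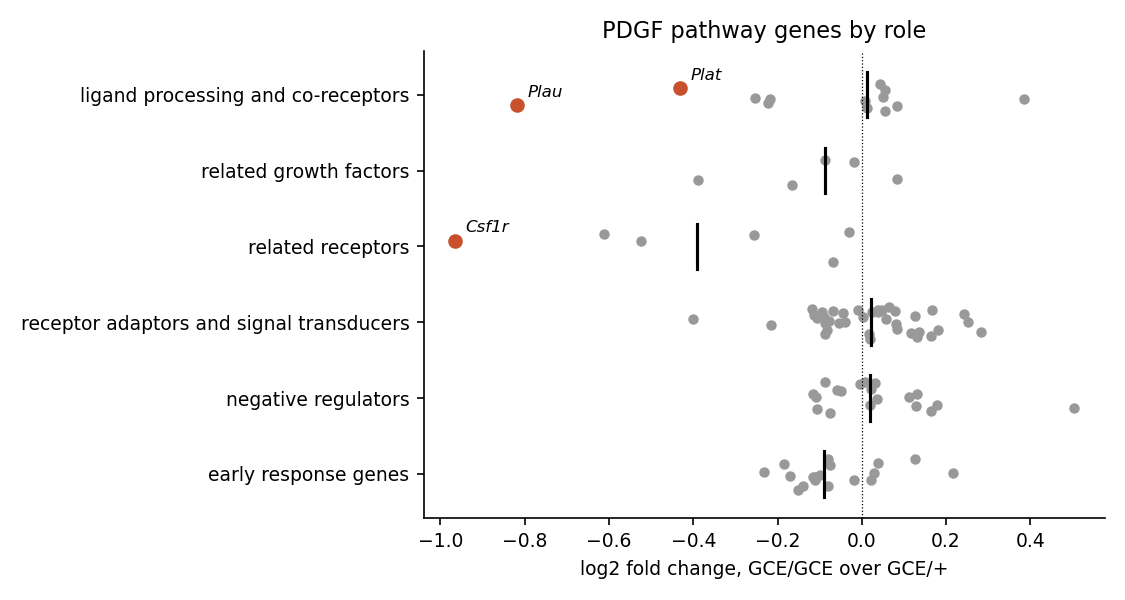
Log2 fold change (GCE/GCE over GCE/+) of 99 PDGF pathway genes in 6 lists by role, with 1 point per gene, a black bar for the median of each list and genes past an adjusted p of 0.1 named in red. The 3 called genes, *Plau*, *Plat* and *Csf1r*, are all lower in GCE/GCE cells, and 94 of the 99 genes lie within 0.5 of 0.

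In all, 3 of the 99 tested pathway genes were called, or 3.03%, beside 1.78% of all tested genes, and 47 had a positive and 52 a negative log2 fold change. The samples did not overlap in 15 genes that were higher and 16 that were lower in GCE/GCE cells, where 19.2% and 19.1% of all tested genes did the same. Leaving out GCE/+ replicate 2 or GCE/GCE replicate 1 raised the 3 calls to 11 in each case, while the calls over all genes rose from 279 to 984 and 696.

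The genes whose pattern over the 4 samples was most like that of a member were found by the root mean square difference of log2(CPM + 0.5), centred on each gene's own mean. For *Pdgfc* they were *Tceal6*, with 0.92 and 0.956 CPM in the GCE/+ embryos, against 1.55 and 1.90 CPM in the GCE/GCE embryos and a difference of 0.00911, and *Csrp3*. The latter had less than 1 CPM in each sample, 0.279 and 0.306 against 0.586 and 0.817 CPM. At such low levels the added 0.5 CPM shrinks differences. In plain CPM both genes rose by a larger factor than *Pdgfc*. Only 95 genes came within 0.1 of *Pdgfc*, compared with 522 for *Pdgfb*, 758 for *Pdgfd* and 4780 to 5125 for *Pdgfa*, *Pdgfra* and *Pdgfrb*, whose values varied least. The 2 nearest genes were *Adcyap1r1* and *Cnrip1* for *Pdgfb*, *Gm16973* and *Zfp772* for *Pdgfd*, *Asns* and *6430598A04Rik* for *Pdgfa*, *2610318N02Rik* and *Paip1* for *Pdgfra*, and *Zbtb7a* and *Smad7* for *Pdgfrb*. These are descriptions over 4 samples.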

How the data were processed

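RNA of GFP+ limb cells was sequenced from 4 embryos, 2 GCE/+ and 2 GCE/GCE, as 50-bp paired-end reads. The authors aligned them to the mm9 genome by TopHat2, guided by UCSC gene models, and obtained counts from HTSeq, set to intersection-strict. The strand setting is not given in the sources used here. The deposited values are raw counts per gene symbol, without normalization.

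Groups and replicate numbers were taken from the labels. Genes passing edgeR's filterByExpr were scaled by TMM and tested with edgeR 4.0.16 (R 4.3.3, quasi-likelihood, two-sided, Benjamini-Hochberg over 15645 genes, threshold 0.1). Standard errors were derived from the F statistic. DESeq2 1.42.0 was an alternative, and the procedure was tested on simulated data. Transcript and coding lengths and coordinates come from GENCODE M21 (GRCm38), which matched 97.9% of symbols. No coordinate was converted from mm9. The coding length planned from RefSeq proteins was taken from GENCODE instead. Alternatives were other normalizations, filters and thresholds, a transcript length offset, a replicate block and leaving out each sample. The member list, the pathway and marker lists and the tests were chosen with earlier results of these data known. Named are all members, pathway genes past the threshold or among the 3 largest changes of their list at 1 CPM or more, the 2 genes nearest to each member, and markers of cell types that express a member. *Sparc*, *Nrp1*, *Kit*, *Vegfa*, *C1qb*, *Mrc1*, *Ptprc*, *Erg*, *Tek* and *Egr1* were added after their values were seen. Of 9 blood genes, 5 were tested and 0 called by edgeR or DESeq2, and 0 had an unadjusted p under 0.05 in edgeR. The median log2 fold change of the tested blood genes was -0.10 without GCE/+ replicate 2 and 1.07 without GCE/+ replicate 1.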

Additional observations from a re-analysis of the deposited data

How the results depend on the processing

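*Pdgfc* stayed higher and past the threshold under all 13 alternatives, and *Pdgfa*, *Pdgfb*, *Pdgfd* and *Pdgfrb* kept their direction and stayed short of it in all 13. *Pdgfra*, which was not called, had a log2 fold change of 0.048 that turned to -0.0354 with the transcript length offset and to -0.0359 with that offset and the replicate block, and ran from -0.0696 (without GCE/+ replicate 1) to 0.167 (without GCE/+ replicate 2) when each sample was left out. Over 15471 genes, which are not independent, transcript length and log2 fold change had a Spearman's rho of 0.256. The count of called genes, 279 in edgeR, was 508 with DESeq2, 425 without the filter on low counts, 465 with the length offset and the replicate block and 122 at an adjusted p under 0.05, and leaving out each sample in turn gave 197 (GCE/+ replicate 1) to 984 (GCE/+ replicate 2), with 696 without GCE/GCE replicate 1 and 402 without GCE/GCE replicate 2. The 3 calls among pathway genes became 0 with the length offset, 0 at an adjusted p under 0.05 and 5 with the length offset and the replicate block, and leaving out each sample gave 2 to 11. The cause of these moves was not tested. A lone sample is assumed there to vary like the other group. In the labels both genotypes have a replicate 1 and a replicate 2. Across 11180 genes the deviations of samples of the same number had a correlation of -0.01, a value over all genes that does not describe single lists. The early response genes summed to 11516 and 9485 CPM in GCE/+ replicates 1 and 2 and to 11313 and 9171 CPM in GCE/GCE replicates 1 and 2. The myogenic sum went opposite ways, with 169 and 190 CPM against 220 and 190 CPM. What the number stands for was not tested. With the replicate block 280 genes were called, 1 of them in the pathway lists (*Csf1r*), *Plat* and *Plau* had adjusted p = 0.127 and 0.111, and *Pdgfc* had 0.0582 (edgeR). The mean *Pdgfra* to *Pdgfrb* ratio per kb was 3.82 over the 4 samples, 4.87 with coding length and 3.67 to 3.95 when each sample was left out.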
